A study of Caenorhabditis elegans with 5 samples.

Results

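Broad PHA-4 regions are those regions of the combined list that were 1000 bp wide or more and overlapped, by at least 1 bp, a region of the replicate 1 list and a region of the replicate 2 list. There were 327 of them among 7745 combined regions, and among the 3191 combined regions found in both replicate lists. The members were chosen by their width and their presence in both lists, so these values are given as a description. They came from anti-GFP chromatin immunoprecipitation with sequencing (ChIP-seq) of *Caenorhabditis elegans* hermaphrodites at the L2 larval stage, fed HB101 bacteria and grown at 20 °C, crosslinked with 2% formaldehyde and quenched in 100 mM Tris. All 5 libraries, 3 of immunoprecipitated and 2 of input DNA, are from strain OP37, which is unc-119(ed3) III and carries the bombarded transgene wgIs37, a pha-4::TY1::EGFP::3xFLAG fusion with unc-119(+) as its marker. Thus the profiled protein is the tagged PHA-4 of a transgene, in whole animals. The authors deposited 1 list for replicate 1 (1 immunoprecipitation), 1 for replicate 2 (2 immunoprecipitations) and 1 for both combined. Both inputs are labelled replicate 1, and separate cultures for the replicates are not stated in the labels.

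PHA-4 is a FoxA protein, a member of the winged-helix (fork head) family of DNA-binding proteins. It specifies the identity of the cells of the pharynx, the feeding organ of the worm, and it acts on genes expressed early and late in pharyngeal development. It is also present outside the pharynx, including in the intestine and the gonad. Proteins of the FoxA family in mammals are known as pioneer factors, which can bind their sites in closed chromatin. In ChIP-seq, the width of a region called as enriched is a property of the signal and of the caller together.

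The 327 broad regions made up 4.22% of the combined regions and 16.5% of the base pairs they covered, 560422 of 3400821 bp. Their widths ran from 1001 to 5755 bp with a median of 1454 bp (interquartile range 1191.5 to 1921.5). In all, 176 were under 1500 bp, 78 from 1500 to under 2000 bp, 52 from 2000 to under 3000 bp and 21 were 3000 bp or wider. The comparison regions, combined regions from 200 to under 1000 bp that also overlapped both replicate lists, numbered 2856 and had a median width of 448 bp. No test was applied to any difference between these classes, because width came from the same lists as every other value and regions are not replicates. Intervals are 95% exact binomial intervals for shares and order-statistic intervals for medians.

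The boundary at 1000 bp cut through a continuous range of widths. The 5 broad regions nearest to it were 1001 bp (chromosome IV, 1657047 to 1658047), 1002 bp (I, 14945244 to 14946245), 1005 bp (III, 8417001 to 8418005) and, at 1012 bp each, I, 6171396 to 6172407, and III, 6158531 to 6159542. The 5 regions just below were 993 bp (X, 4208549 to 4209541), 996 bp (III, 7155118 to 7156113), 997 bp (V, 15187221 to 15188217) and, at 998 bp each, X, 5840512 to 5841509, and II, 7151549 to 7152546. Combined q-values ran from 4.73e-82 to 5.36e-14 over the 5 just inside and from 1.2e-59 to 7.74e-18 over the 5 just outside. A further 52 combined regions of 1000 bp or more were not members, since 34 overlapped only replicate 2, 10 only replicate 1 and 8 neither list.

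Broad regions were also strong regions. PeakSeq gives each region a q-value, the adjusted evidence that its tags exceed the control, and the authors' combined q had a median of 4.57e-25 over the broad regions against 2.17e-12 over the comparison regions. Of the 100 combined regions with the lowest q, 57 were broad, and of the lowest 1000, 210 were. Broad regions made up 4.22% of all 7745 combined regions. Members also had to be present in both replicate lists, which was not asked of the other regions ranked. A q-value grows more extreme with the number of tags in a region, which a wider region can hold more of, so it is not a level of binding per base pair. Across the 327 broad regions Spearman's rho between width and −log10 q was 0.357, and across all 3191 regions found in both replicates it was 0.471; width and q come from the same call in each case. Strength was not uniform, as the broad q-values ran from 7.26e-193 to 0.000194 and 18 of the comparison regions were weaker than every broad region.

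The widest region lay on chromosome X, 6740007 to 6745761, and measured 5755 bp. Its replicate 1 regions measured 1618 bp (q 6.91e-11) and 1906 bp (q 5.05e-07), and its replicate 2 regions 3151 bp (q 2.26e-17) and 1818 bp (q 9.14e-09). Both replicates thus broke it into 2 pieces, and the breaks overlapped, lying between 6743175 and 6743406 in replicate 1 and between 6743226 and 6743647 in replicate 2. The next, on chromosome I at 7079019 to 7083842 (4824 bp), was a single stretch of 4705 bp in replicate 1 and 2 stretches of 1822 and 2518 bp in replicate 2. The region at 723749 to 728331 on chromosome V (4583 bp) was likewise whole in replicate 1, at 4582 bp, but only 2 pieces of 413 and 1569 bp in replicate 2. Chromosome IV, 17277049 to 17281609 (4561 bp), showed the converse, with 4581 bp in 1 region of replicate 2 and only 532 bp in replicate 1. On III, 8443564 to 8447623 (4060 bp), replicate 2 held 4058 bp and replicate 1 held 325 bp.

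The other 5 of the 10 widest regions also differed between lists. Chromosome V carried a pair of them side by side, 6220807 to 6225362 (4556 bp) and 6225685 to 6230143 (4459 bp). In replicate 1 the left one held 3 regions of 1713, 1162 and 1083 bp, while replicate 2 reached only its right end with 1329 bp. The right one held regions of 2617 and 1042 bp in replicate 1 and a single one of 3643 bp in replicate 2. The region at 9379948 to 9384173 on I (4226 bp) was in 3 pieces in replicate 1 and 2 in replicate 2. That at 14610538 to 14614597 on IV (4060 bp) was in 2 pieces in each list. The last, on II at 10550015 to 10553981 (3967 bp), held 1 region in each list, which measured 1282 bp (replicate 1) and 2519 bp (replicate 2). Replicate regions of either list covered 63.5% of its length.

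**Figure D1:**
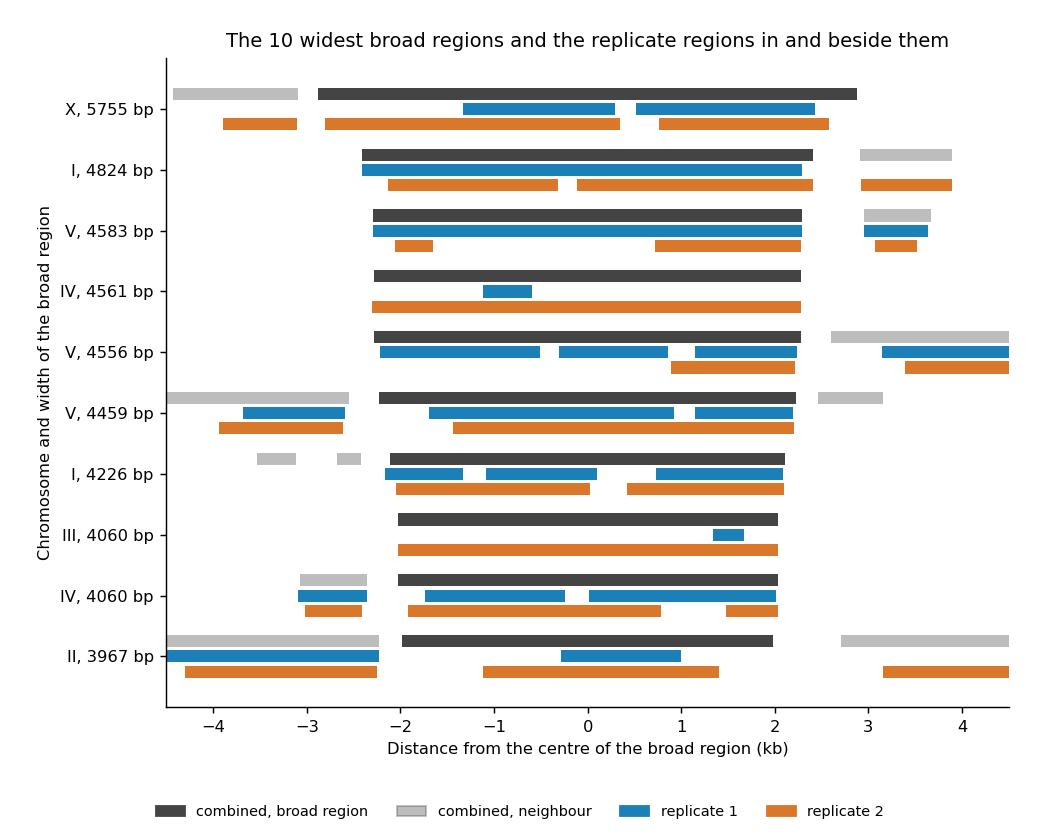
Map of the 10 widest broad regions: the x axis is the distance in kb from the centre of each region, and each block of 3 tracks shows the combined list (dark grey for the broad region, light grey for neighbouring regions), replicate 1 (blue) and replicate 2 (orange). The top region (X, 5755 bp) has 2 pieces in each replicate, whereas those on IV (4561 bp) and III (4060 bp) are nearly whole in replicate 2 and small in replicate 1.

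Most broad regions were not divided in the replicate lists. In 237 of the 327 (72.5%, 67.3 to 77.2) each replicate list held exactly 1 overlapping region. Replicate 1 held 2 or more regions in 48 (14.7%, 11.03 to 18.99), against 1.69% of all combined regions found in both replicates. Replicate 2 held 2 or more in 68 (20.8%, 16.5 to 25.6), against 2.60%, and both lists did so in 26 (7.95%, 5.26 to 11.4), against 0.846%. These backgrounds include the broad regions themselves, which supplied 48 of 54, 68 of 83 and 26 of 27 of the divided regions. Among the comparison regions the shares were 0.210% for replicate 1, 0.525% for replicate 2 and 0.0350% for both, and for regions of 500 to under 1000 bp 0.533%, 1.33% and 0.0888%. A narrow region has little room to hold several pieces, as no 2 regions of any list were less than 200 bp apart, so the width that chose the members also sets how many pieces can lie in one.

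Within the broad class the share divided was higher in each wider class up to 3000 bp in both lists, and beyond that in replicate 1 but not in replicate 2. In replicate 1, 7.39% (3.99 to 12.3) of regions of 1000 to under 1500 bp, 16.7% (9.18 to 26.8) of those of 1500 to under 2000 bp, 26.9% (15.6 to 41.0) of those of 2000 to under 3000 bp and 38.1% (18.1 to 61.6) of those of 3000 bp or more held several regions. In replicate 2 the shares were 10.2% (6.17 to 15.7), 21.8% (13.2 to 32.6), 48.1% (34.0 to 62.4) and 38.1% (18.1 to 61.6). The widest class has 21 regions, and its interval overlaps that of the class below in both lists. Division also went with strength. With broad regions sorted into 4 groups by combined q, weakest first, 6.10%, 28.4%, 25.6% and 50.0% were divided in at least 1 list. The median widths of these groups were 1304.5, 1384, 1360.5 and 1972 bp. Strength and width were not separated by a test, and no intervals were computed for these groups.

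**Figure D2:**
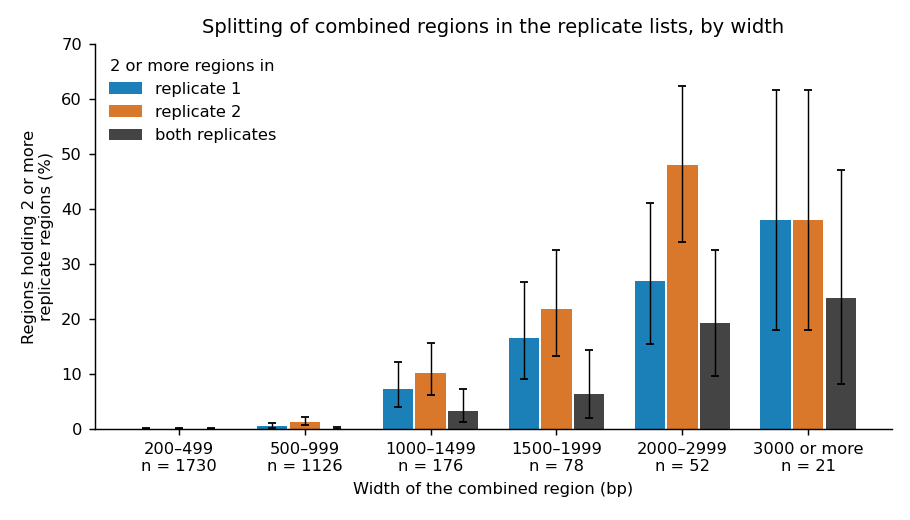
Share of combined regions (%, y axis) that held 2 or more replicate 1 regions (blue), 2 or more replicate 2 regions (orange) or 2 or more of each (grey), by width of the combined region in bp (x axis); bars show the share and error bars its 95% exact binomial interval. No region of 200 to under 500 bp was divided, and the replicate 2 share is highest, at 48.1%, from 2000 to under 3000 bp; at 3000 bp or more each list divides 38.1%, and 23.8% are divided in both.

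The most divided members held 5 replicate regions. There were 5 such members, at 9379948 to 9384173 on I, 4914057 to 4917928 on I, 15273648 to 15277242 on X, 13329582 to 13332026 on IV and 3853571 to 3855094 on I. The one on X (3595 bp) held 2 regions in replicate 1, of 1079 and 2200 bp, and 3 in replicate 2, of 913, 1589 and 432 bp. The narrowest, at 3853571 on I, packed 5 pieces into 1524 bp: 396 and 558 bp in replicate 1, and 457, 174 and 385 bp in replicate 2. In it the outer pieces of both lists faced each other, and the middle stretch of 174 bp was found in replicate 2 alone (q 0.00262). Another 21 members held 2 regions in each list, and 2 held 3 in replicate 1 and 1 in replicate 2. The widest 5 of these members with 4 pieces were 6220807 on V, with 3 and 1, and, with 2 in each list, the widest region on X, 14610538 on IV, 13462547 on III (2925 bp) and 5843509 on V (2740 bp).

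Gaps between pieces in 1 replicate were often filled in the other. The 48 regions divided in replicate 1 contained 52 gaps of 201 to 1271 bp with a median of 263.5 bp. Of these, 26 lay entirely inside a single replicate 2 region, 20 were partly covered by replicate 2 and 6 were empty in it. The 68 regions divided in replicate 2 contained 71 gaps of 200 to 2365 bp with a median of 260 bp. Of these, 37 were spanned by 1 replicate 1 region, 27 were partly covered and 7 were empty. Stretches that neither list covered, between covered parts, occurred in 37 broad regions (11.3%, 8.09 to 15.3) and in 16 comparison regions (0.560%, 0.321 to 0.908).

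The replicates together accounted for most of a broad region, but shared less of it. Replicate 1 regions covered a median of 82.3% of a broad region's length (79.6 to 85.7), replicate 2 regions 80.6% (76.8 to 84.4), and either of them 96.5% (95.4 to 97.5). Both covered the same base pairs over a median of 61.6% (56.7 to 65.0), against 78.8% (78.3 to 79.2) in the comparison regions and 75.7% in those of 500 to under 1000 bp. This shared length varied with strength. In the 4 groups of broad regions by combined q, weakest first, its median was 46.6%, 57.5%, 62.1% and 74.2%. Comparison regions in the same ranges of q had medians of 75.6%, 81.1%, 84.0% and 86.6%. Less than 50% of the length was shared in 112 broad regions (34.3%, 29.1 to 39.7) and in 233 comparison regions (8.16%, 7.18 to 9.22). A shared length of 90% or more was found in 25 broad regions (7.65%, 5.01 to 11.1) and in 223 comparison regions (7.81%, 6.85 to 8.85), shares whose intervals overlap. The outermost replicate edge lay within 50 bp of the combined edge at 470 of 654 broad region edges (71.9%) when both lists were used, but at 48.0% for replicate 1 and 49.2% for replicate 2 alone.

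The replicate lists did not always hold a region of that width. A replicate 1 region of 1000 bp or more, counted at its full width, overlapped 188 broad regions (57.5%, 51.9 to 62.9), a replicate 2 region of that width in 175 (53.5%, 47.9 to 59.0) and 1 of each in 114 (34.9%, 29.7 to 40.3). In 78 (23.9%, 19.3 to 28.9) no overlapping region of either list was 1000 bp wide; 68 of these were under 1500 bp. All 21 regions of 3000 bp or more overlapped a replicate 2 region of 1000 bp or more, and 17 of them a replicate 1 region of that width.

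Some broad regions were covered almost wholly in 1 replicate and hardly in the other. The coverage differed by 50 percentage points or more in 52 broad regions (15.9%, 12.1 to 20.3), 26 in favour of each replicate, and in 83 comparison regions (2.91%, 2.32 to 3.59). The regions named next were picked with their coverage in view. The largest difference was at 14404151 to 14408074 on II, 3924 bp, where replicate 2 covered all and replicate 1 covered 7.90% with 1 weak region (q 0.00319). At 15341982 to 15344339 on X, 2358 bp, replicate 1 covered all and replicate 2 covered 13.9%. At 9617120 to 9618410 on II, replicate 1 covered 89.1% and replicate 2 covered 6.04%. In 1 member, at 8126085 to 8127634 on II, the replicate regions shared no base pair: replicate 1 covered the left 28.6% and replicate 2 a stretch of 27.4% near the right end. Such regions are members because the rule asks for an overlap of at least 1 bp, whatever share of the length is covered. With an overlap of at least 100 bp asked of both lists, 326 of the 327 members remained. The number of tags behind each list is unknown.

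**Figure D3:**
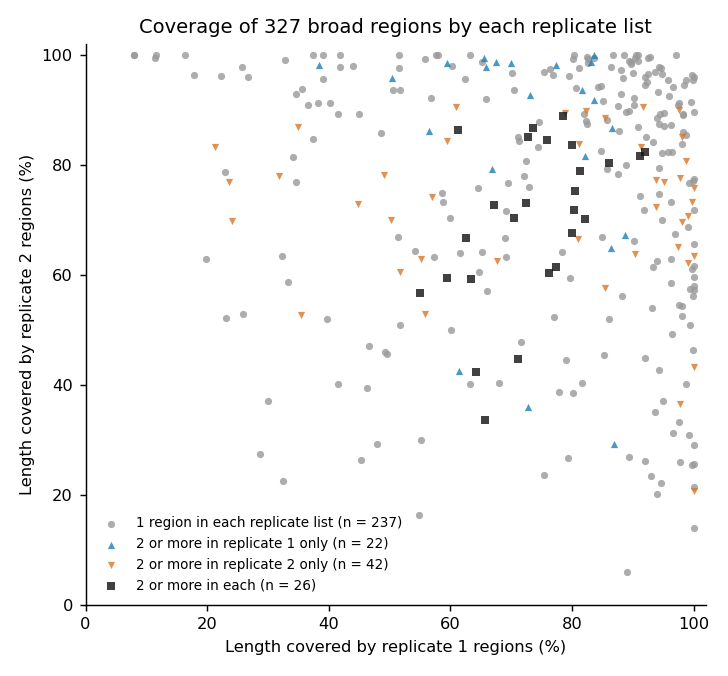
Length of each broad region covered by replicate 1 regions (x axis, %) and by replicate 2 regions (y axis, %), 1 point per region for 327 regions, with the marker showing whether a list held 2 or more regions in it. Most points lie toward the upper right, and those at the upper left and lower right are the 52 regions whose coverage differs by 50 percentage points or more.

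Broad regions had close neighbours. The median distance from the edge of a broad region to the nearest other combined region was 823 bp (650 to 1044), against 1959.5 bp (1866 to 2096) for the comparison regions and 1458.5 bp (1335 to 1623) for those of 500 to under 1000 bp. The median was lower for broad than for comparison regions on 6 of 6 chromosomes. Another combined region lay within 2000 bp of 238 broad regions (72.8%, 67.6 to 77.5), against 52.9% of all combined regions found in both replicates, 50.6% (48.8 to 52.5) of the comparison regions and 58.1% (55.1 to 61.0) of those of 500 to under 1000 bp. In the 10000 bp on either side, a broad region had a median of 3 other combined regions (interquartile range 2 to 5) and a comparison region 2 (1 to 4).

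This closeness depended on how distance was measured. Between midpoints, which counts part of the widths of both regions, the nearest region lay within 2000 bp for 44.04% (38.6 to 49.6) of broad and 42.5% (40.7 to 44.3) of comparison regions, and the intervals overlapped. The median midpoint distance was 2122 bp for broad regions (2016 to 2315) and 2450 bp (2343 to 2559) for comparison regions. The plot of distances shows the curves crossing on that scale. When only neighbours found in both replicate lists were counted, edge to edge, 47.7% (42.2 to 53.3) of broad and 27.6% (25.9 to 29.2) of comparison regions had one within 2000 bp.

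**Figure D4:**
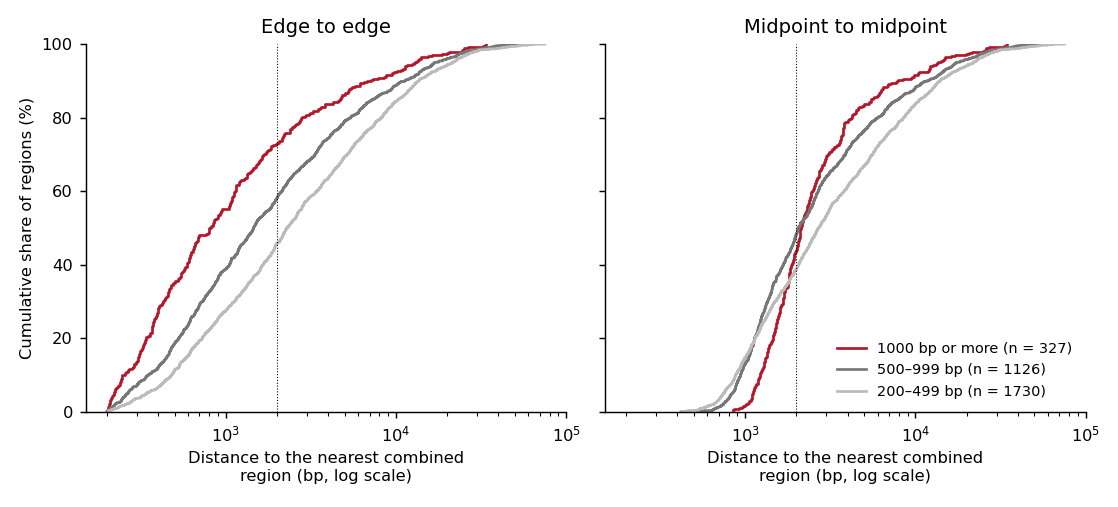
Cumulative share of regions (y axis, %) by distance to the nearest other combined region (x axis, bp, log scale), from edge to edge on the left and between midpoints on the right, for regions of 1000 bp or more, 500 to under 1000 bp and 200 to under 500 bp; the dotted line marks 2000 bp. Edge to edge, 72.8% of broad regions lie left of the line, but between midpoints 44.04% do and the curves cross.

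Spacing was also compared within ranges of strength. With broad regions divided into 4 groups by combined q and the comparison regions placed in the same ranges of q, a neighbour within 2000 bp, edge to edge, was found for 65.9% of broad and 47.4% of comparison regions in the weakest range. In the next the shares were 79.0% and 51.7%, in the third 69.5% and 58.5%, and in the strongest 76.8% and 69.0%. The difference was smallest in the strongest range, where 82 broad and 87 comparison regions remained. No intervals were computed within these ranges, so whether the shares differ in any single range is not shown.

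Some broad regions also lay beside one another. The nearest combined region was itself broad for 44 of the 327 (13.5%, 9.95 to 17.6), and for 135 of the 2856 comparison regions (4.73%, 3.98 to 5.57). Joined where they were 2000 bp or less apart, 53 broad regions formed 24 groups, of which 21 were pairs, 2 held 3 regions and 1 held 5. The other 274 of the 327 had no broad region that close. No such grouping is given here for comparison regions. The groups held 16 of the 89 broad regions on X (8 groups) and 12 of the 55 on V (6 groups). On II they held 9 of 50, on III 6 of 49, on I 5 of 43 and on IV 5 of 41. The closest pairs were 204 bp apart on II (8124818 to 8125880 and 8126085 to 8127634), 225 bp apart on X (7231401 to 7232855 and 7233081 to 7235353) and 247 bp apart on II (10546646 to 10549767 and 10550015 to 10553981). They were followed by a pair on III at 315 bp (9825241 to 9826446 and 9826762 to 9827859) and, at 322 bp, by the pair of wide regions on V.

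The group of 5 lay on chromosome II, 10541885 to 10559755, and its regions filled 84.1% of a span of 17871 bp. From left to right they measured 3633, 3122, 3967, 2966 and 1338 bp, separated by 1128, 247, 726 and 744 bp. The span held 6 combined regions, 5 of them broad. In replicate 1 the 5 held 1 region each, of 2001, 3122, 1282, 1110 and 1311 bp, whereas replicate 2 held 2 in the first, of 447 and 1839 bp, and then 2049, 2519, 2515 and 980 bp. The third was the strongest, at place 58 of the combined list and place 22 of each replicate list. Its neighbours stood at places 98, 950, 1020 and 1927 of the combined list, so regions of very different strength lay side by side.

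At the other end of the range, 25 broad regions (7.65%, 5.01 to 11.1) had no other combined region within 10000 bp, against 398 comparison regions (13.9%, 12.7 to 15.3). The 5 most isolated were on V at 13853039 to 13854693 (33574 bp from the nearest), X at 9636962 to 9638049 (33188 bp), V at 2730455 to 2731550 (32494 bp), X at 2938715 to 2939917 (26440 bp) and IV at 11082391 to 11083489 (25214 bp). They were 1088 to 1655 bp wide. The first was strong in replicate 1, with a single region of 1647 bp at place 26 (q 5.91e-45), and was divided into 598 and 432 bp in replicate 2. The one at 9636962 on X was weak in both lists, at q 0.00137 and 0.00247.

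Broad regions were distributed differently over the chromosomes from narrower ones, and X carried more of them. X held 89 broad regions (27.2%, 22.5 to 32.4) against 18.6% of all combined regions found in both replicates. It held 505 of the comparison regions (17.7%, 16.3 to 19.1), a share equal to its 17.7% of the length. The density of broad regions was 5.02 per Mb on X and 2.34 to 3.56 per Mb on the autosomes, with IV lowest and III highest. Put the other way, 14.96% (12.2 to 18.1) of the regions on X found in both replicates were broad, against 7.28% (5.32 to 9.68) on I, 7.79% (5.65 to 10.4) on IV, 10.07% (7.68 to 12.9) on V, 10.2% (7.62 to 13.2) on III and 11.1% (8.34 to 14.4) on II. The intervals of II, III and V overlapped that of X, and those of I and IV did not.

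The X share changed with width without a steady order. It was 15.6% (13.9 to 17.4) at 200 to under 500 bp, 20.9% (18.5 to 23.4) at 500 to under 1000 bp, 29.5% (22.9 to 36.9) at 1000 to under 1500 bp, 26.9% (17.5 to 38.2) at 1500 to under 2000 bp and 26.9% (15.6 to 41.0) at 2000 to under 3000 bp. At 3000 bp or more X held 2 of 21 regions (9.52%, 1.17 to 30.4), and at 2000 bp or more 16 of 73 (21.9%, 13.1 to 33.1). Both intervals include its share of the length and also the 27.2% of the whole broad class. The replicate lists taken alone, which are not independent of the combined list, gave similar values. X held 62 of 221 replicate 1 regions of 1000 bp or more (28.1%) and 57 of 218 in replicate 2 (26.1%), against 18.2% and 18.7% of their regions of 200 to under 1000 bp.

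The share on X also moved with strength. In the weakest of the 4 ranges of q, X held 29 of 82 broad regions (35.4%) and 19.3% of the comparison regions of that range. In the next ranges it held 25.9% and 15.2%, and 28.05% and 13.7%. In the strongest it held 16 of 82 broad regions (19.5%) and 19 of 87 comparison regions (21.8%). These shares were close and rest on few regions, and no intervals were computed within the ranges of q. Whether the X share of broad regions was lower than, equal to or higher than that of comparison regions in the strongest range is therefore not shown. Broad regions on X had a median combined q of 5.01e-21, which lay between the medians of the autosomes: those of II (1.85e-20) and III (9.1e-21) were weaker, and those of I, IV and V stronger. Their median width was 1415 bp against 1470 bp on the autosomes.

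Chromosome I held a smaller share of broad than of comparison regions, 43 of 327 (13.1%, 9.68 to 17.3) against 548 of 2856 (19.2%, 17.8 to 20.7), with 18.5% of all combined regions found in both replicates. Its share was 20.8% (18.9 to 22.8) at 200 to under 500 bp and 16.7% (14.6 to 19.01) at 500 to under 1000 bp. The latter interval overlaps that of the broad regions, which also includes the chromosome's share of the length. A lower share on I is thus not shown against regions of 500 to under 1000 bp. At 2000 bp or more I held 11 of 73 regions (15.1%, 7.77 to 25.4). Chromosome I held 1 of 82 broad regions in the weakest range of q (1.22%, against 12.4% of comparison regions) and 20 of 82 in the strongest (24.4%, against 34.5%). Broad regions on I stood at a median place of 187 in the combined list, against 675.5 elsewhere, although their best replicate regions had median places of 459 and 461 against 745.5 and 720 elsewhere. They were divided in at least 1 replicate list in 22 of 43 cases (51.2%, 35.5 to 66.7), against 68 of 284 elsewhere (23.9%, 19.1 to 29.3). Over all chromosomes, 41 of 82 broad regions (50.0%) were divided in the strongest range of q and 5 of 82 (6.10%) in the weakest. A neighbour within 2000 bp was found for 93.02% of broad regions on I, against 69.7% of broad regions elsewhere and 58.2% of comparison regions on I. The part played in this by the way the combined list was made was not tested.

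**Figure D5:**
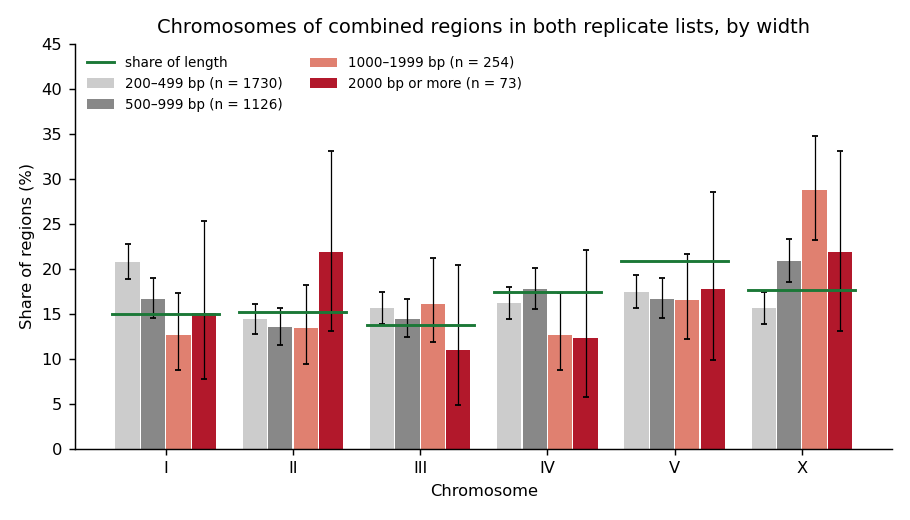
Share of combined regions found in both replicate lists that lay on each chromosome (y axis, %), for 4 classes of width, with 95% exact binomial intervals as error bars and the share of the total length as a green line. On X the share is 15.6% for the narrowest class and 28.7% at 1000 to under 2000 bp, while on I it is 20.8% and 12.6%.

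Along the chromosomes broad regions lay much where narrower ones did. With each chromosome divided into 3 stretches of equal length, the middle stretch held 152 broad regions (46.5%, 41.0 to 52.1), against 44.1% of all combined regions found in both replicates and 43.8% (41.9 to 45.6) of the comparison regions. The intervals overlapped, and the share was higher for broad than comparison regions on 3 of 6 chromosomes. The outermost stretches, 10% of the length at each end, held 13.5% (9.95 to 17.6) of broad and 15.5% (14.2 to 16.9) of comparison regions. The 73 regions of 2000 bp or more had 38.4% (27.2 to 50.5) in the middle stretch, a value below those of the whole class and of the comparison regions, with an interval that includes both.

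Single chromosomes varied around these values. The middle stretch held 33 of 55 broad regions on V (60.0%, 45.9 to 73.0) and 29 of 50 on II (58.0%, 43.2 to 71.8). For comparison regions the shares were 51.3% (46.8 to 55.8) on V and 45.4% (40.4 to 50.4) on II. Of the remaining broad regions, V had 17 in its first stretch and 5 in its last, whereas II had 2 in its first and 19 in its last. End stretches of single chromosomes were not counted for comparison regions, so whether this skew is particular to broad regions is not shown. On X the middle stretch held 39 of 89 (43.8%, 33.3 to 54.7) against 33.9% (29.7 to 38.2) of comparison regions, and the remaining 50 were divided equally between the ends. On IV it held 14 of 41 (34.1%, 20.1 to 50.6) against 44.2% (39.7 to 48.7). On each of the 6 chromosomes the interval for broad regions overlapped that for comparison regions. In bins of 1 Mb, 14 of 103 bins held no broad region and 8 held 8 or more; the fullest was chromosome II, 9000001 to 10000000, with 10.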

How the data were processed

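Chromatin immunoprecipitation with sequencing was done on 5 libraries, 3 immunoprecipitations and 2 inputs. The deposited data are 3 lists of regions called with PeakSeq, and per the file headers they use WormBase WS190 coordinates. Each region carries a q-value that the authors deposited; no counts or signal were used, so depth is unknown. Not given in the sources used here: aligner, PeakSeq settings, the input used per list, and how the combined list was built. The 2 replicate 2 libraries share 1 list.

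From the lists, widths, overlaps of at least 1 bp, covered base pairs, gaps and distances were computed with Python 3.11.15, pandas 2.3.3, numpy 2.4.6 and scipy 1.17.1 (plots, matplotlib 3.10.9). Overlap counts matched bedtools 2.31.1 for all 7745 combined regions in both replicate lists, and the code was tested on simulated data. Coordinates are 1-based. Chromosome length is the furthest region end in any list. Shares have 95% exact Clopper-Pearson intervals and medians 95% order-statistic intervals; both cover counting error only and treat regions as independent.

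The members, comparisons and alternatives were chosen with earlier results of these data known. Regions were named by rule: the 10 widest, the 10 with most replicate regions (ties by width), the 5 most isolated, the 5 closest pairs and the 5 on each side of 1000 bp. Others were named after their values were seen. Gene positions on WS190 were not used here.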

Additional observations from a re-analysis of the deposited data

Results flagged for a closer look

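Wide regions were present in the replicate lists at a place where the combined list used here held none. Of the replicate 1 regions of 1000 bp or more, 194 of 221 overlapped a broad region, 21 overlapped another combined region and 6 overlapped no combined region. In replicate 2 the numbers were 181 of 218, 32 and 5. All of these 6 and 5 regions lay on chromosome V between 20740660 and 20774524. They were up to 3907 bp wide in replicate 1 and up to 9135 bp in replicate 2, where the widest region of either replicate list, 20765338 to 20774472, was among them. These regions could not become members, because the rule starts from the combined list. No annotation on this genome build was used here, so what lies in this stretch, and whether it was set aside when the combined list was prepared, is unknown; nothing is read from the width of these regions.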

How the results depend on the processing

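Of 73 alternative values, 56 fell inside the 95% interval of the reported share or median, or within 1.5 times a reported count. The number of broad regions was 151 at a minimum width of 1500 bp and 73 at 2000 bp. At 1500 bp the shares divided were 23.2% in replicate 1, 33.1% in replicate 2 and 13.2% in both, and at 2000 bp 30.1%, 45.2% and 20.5%. At 2000 bp the median distance to the nearest region was 573 bp, the share with one within 2000 bp 79.5%, the share in the middle of 3 equal stretches 38.4%, which is below the 43.8% of comparison regions where the reported share is above it, and the share on X 21.9%. With neighbours limited to regions found in both replicate lists, the median distance was 2298 bp and the share within 2000 bp 47.7%; between midpoints they were 2122 bp and 44.04%. The central 50% of each chromosome held 66.4% of broad and 61.6% of comparison regions. Requiring 100 bp of overlap, a combined q of 1e-10 or lower or leaving out chromosome I kept each value within those limits. Merging replicate regions within 200 bp joined 1 pair in replicate 2 and none in replicate 1, so it could hardly move a share. Without replicate 1 or replicate 2, that is with presence asked of the other list alone, there were 337 to 361 broad regions, with 26.04% to 27.6% on X, 12.8% to 13.6% on I, 46.3% to 47.1% in the middle stretch, 70.9% to 72.4% with a neighbour within 2000 bp and a median distance of 836 to 839 bp; the share divided was 14.2% in replicate 1 and 18.8% in replicate 2. Division in both lists and shared coverage need both lists and have no such value. The comparison regions at a combined q of 1e-10 or lower and without chromosome I were added after the data were seen: X held 16.3% and 21.9% of them, against 25.1% and 31.3% of broad regions. No paired analysis was possible because the lists hold no values per library. Unknown depth limits any reading of a piece missing from 1 list.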
